A study of Mus musculus with 6 samples.

Results

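The nuclear genes for aminoacyl-tRNA synthetases, the enzymes that load amino acids onto tRNAs, were followed in a mouse leukaemia line treated with a vitamin B6 analog. They were taken by gene name from the deposited expression table, which gave 36 of its 53465 genes. Of these, 20 encode cytosolic synthetases or their subunits, and 16, with names ending in ars2, encode mitochondrial synthetases. The methionine enzyme is listed as Mars, and no separate row is named Mars1. The cells are the line Nras(G12D)/MLL-AF9, labelled as blood, which carries an activated Nras allele and the MLL-AF9 fusion oncogene, and all libraries come from it. They grew in RPMI with serum, SCF, IL-3 and IL-6, and received either PBS (Vehicle, 3 libraries) or 100 µM 4'-O-methylpyridoxine (OMP, 3 libraries) for 6 days. The labels do not say whether the line is a clone or whether the replicates were separate cultures, so p-values measure no more than how far these libraries differ, which may be technical. OMP, also called ginkgotoxin, is known as an inhibitor of pyridoxal kinase, which makes the active form of vitamin B6.

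Each synthetase recognises 1 amino acid and its tRNAs, and uses ATP to join them, so that ribosomes receive correctly charged tRNAs. Animal cells keep separate enzymes for the cytosol and for mitochondria, where tRNAs encoded by the mitochondrial genome serve translation of respiratory chain subunits. Gars and Kars are known to supply both compartments from a single gene, and Eprs encodes a fused enzyme for glutamate and proline. Some cytosolic enzymes sit in the multisynthetase complex, held together by the scaffold proteins Aimp1, Aimp2 and Eef1e1. By the fold of the catalytic domain, synthetases fall into class I and class II. Several cytosolic synthetase genes are known targets of Atf4, the transcription factor of the amino acid response, which binds C/EBP-ATF response elements.

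The promoters of 8 cytosolic synthetases are printed because 5 of them hold that element and the other 3 belong to the genes with the largest called changes in this compartment. RefSeq windows (GRCm38.p6) were matched for 13 cytosolic and 14 mitochondrial genes. Each stretch runs 5′ to 3′ on the gene's strand, from 250 bases before the annotated start through the first 30 transcribed bases. Capitals mark TGATGNAA, the response element searched on both strands, and CACGTG, the E-box known to bind Myc, and the printed motifs do not overlap each other. The windows are Aars chr8:111033592-111033871 (+), Gars chr6:55037751-55038030 (+), Iars chr13:49681880-49682159 (+), Tars chr15:11399629-11399908 (−), Yars chr4:129189653-129189932 (+), Farsa chr8:84856736-84857015 (+), Eprs chr1:185362794-185363073 (+) and Dars chr1:128417387-128417666 (−).
Aars: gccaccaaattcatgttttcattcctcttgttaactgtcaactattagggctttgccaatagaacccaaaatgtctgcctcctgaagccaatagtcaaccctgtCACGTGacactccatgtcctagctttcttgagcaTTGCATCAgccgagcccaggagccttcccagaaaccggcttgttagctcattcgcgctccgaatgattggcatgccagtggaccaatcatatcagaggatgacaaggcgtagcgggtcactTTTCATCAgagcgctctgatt
Gars: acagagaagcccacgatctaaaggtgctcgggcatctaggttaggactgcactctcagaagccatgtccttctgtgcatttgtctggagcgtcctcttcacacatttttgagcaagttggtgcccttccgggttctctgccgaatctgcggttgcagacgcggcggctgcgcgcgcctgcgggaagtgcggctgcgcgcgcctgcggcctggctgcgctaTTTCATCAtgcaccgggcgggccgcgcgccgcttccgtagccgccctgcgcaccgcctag
Iars: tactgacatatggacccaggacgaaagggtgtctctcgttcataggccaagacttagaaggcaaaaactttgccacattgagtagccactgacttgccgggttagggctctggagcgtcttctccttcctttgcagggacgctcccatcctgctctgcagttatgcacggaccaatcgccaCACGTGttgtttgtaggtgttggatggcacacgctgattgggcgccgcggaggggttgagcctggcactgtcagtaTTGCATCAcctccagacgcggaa
Tars: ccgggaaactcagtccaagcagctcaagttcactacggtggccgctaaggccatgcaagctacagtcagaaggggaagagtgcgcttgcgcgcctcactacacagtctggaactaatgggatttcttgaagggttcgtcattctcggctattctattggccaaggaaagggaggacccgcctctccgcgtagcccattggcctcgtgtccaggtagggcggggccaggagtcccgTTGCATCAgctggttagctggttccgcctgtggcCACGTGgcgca
Yars: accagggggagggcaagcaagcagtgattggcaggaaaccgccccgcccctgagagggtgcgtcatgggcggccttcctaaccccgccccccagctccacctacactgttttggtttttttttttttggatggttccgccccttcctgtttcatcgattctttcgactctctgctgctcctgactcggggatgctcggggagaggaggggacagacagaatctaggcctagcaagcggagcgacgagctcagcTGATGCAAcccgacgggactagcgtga
Farsa: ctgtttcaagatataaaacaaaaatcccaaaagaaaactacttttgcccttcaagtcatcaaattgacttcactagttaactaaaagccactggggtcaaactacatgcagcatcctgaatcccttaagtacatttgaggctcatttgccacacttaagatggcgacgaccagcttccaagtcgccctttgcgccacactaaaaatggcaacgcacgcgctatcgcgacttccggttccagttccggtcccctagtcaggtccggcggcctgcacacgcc
Eprs: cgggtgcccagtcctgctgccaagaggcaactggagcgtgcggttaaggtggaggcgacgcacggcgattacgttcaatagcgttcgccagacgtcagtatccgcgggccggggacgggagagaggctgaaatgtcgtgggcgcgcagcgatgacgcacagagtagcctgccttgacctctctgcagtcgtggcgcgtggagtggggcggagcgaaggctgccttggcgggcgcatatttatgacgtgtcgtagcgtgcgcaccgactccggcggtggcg
Dars: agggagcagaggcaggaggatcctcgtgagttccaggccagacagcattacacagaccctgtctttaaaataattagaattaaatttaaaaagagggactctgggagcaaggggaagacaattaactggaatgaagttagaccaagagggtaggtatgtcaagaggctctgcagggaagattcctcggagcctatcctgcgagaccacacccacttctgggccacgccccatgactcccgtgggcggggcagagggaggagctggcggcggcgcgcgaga

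In windows of 300 bases (250 before the start and 50 from it), TGATGNAA was found in 5 of 13 cytosolic and 0 of 14 mitochondrial synthetase genes, and in 3.97% of all 32851 windows. Aars held the letters at 2 places, and Gars, Iars, Tars and Yars at 1 each. The matches in Gars and Tars began 30 and 15 bases before the start, and those in Iars and Yars 7 and 3 bases after it. CACGTG was found in 4 of 13 cytosolic genes (Aars, Farsb, Iars and Tars), in 1 of 14 mitochondrial genes (Ears2) and in 7.15% of all windows. No match in a window says nothing about more distant sites, and a match is not evidence of binding.

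The libraries held 3494986 to 4247619 reads, as recovered from the deposited values. These are reads scaled to gene length and library size (RPKM), so levels of different genes are compared per length. Markers of granulocyte maturation were higher with OMP in 8 of 8 genes, with a summed level of 2491 to 2600 RPKM in the Vehicle libraries and 8623 to 9128 RPKM in the OMP libraries, and none of them was at 0. The 6 proliferation markers were all lower, with sums of 495 to 510 RPKM falling to 297 to 312 RPKM. Their part in the synthetase results was not tested, and in bulk RNA a change in the share of cells of a kind cannot be told apart from a change in RNA per cell. Of the leukaemic myeloid markers all 7 were tested, with 2 called higher and 3 lower. T cell and fibroblast markers each summed to under 1 RPKM in every library, and Cd3e and Dcn were at 0. Of the endothelial markers, Kdr was at 0 and Pecam1, which myeloid cells also express, was the 1 that passed the expression minimum.

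All 36 genes were expressed, each at 1 RPKM or more in all 6 libraries, and each cytosolic mean stood above every mitochondrial mean except that of Lars2. In Vehicle cells the cytosolic means ran from 54.0 to 369 RPKM with a median of 93.9 RPKM, and the mitochondrial means from 2.69 to 212 RPKM with a median of 9.85 RPKM. Nars, the asparagine enzyme, had the highest level of all, with 376, 367 and 364 RPKM in the Vehicle libraries and 379, 373 and 383 RPKM in the OMP libraries. The next levels in Vehicle cells were those of Gars (glycine), Lars2 (mitochondrial leucine) and Dars (aspartate), at 243, 212 and 210.4 RPKM, and the libraries of Lars2 and Dars overlapped. The lowest cytosolic level was that of Cars, the cysteine enzyme. Between Eprs at 146 RPKM and Qars at 73.4 RPKM, many neighbours in the order overlapped, among them Iars, Lars and Aars.

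Lars2 stood apart from the other mitochondrial enzymes. It gave 198, 208 and 229 RPKM in the Vehicle libraries and 227, 194 and 185 RPKM in the OMP libraries. The next highest mitochondrial gene was Rars2, the arginine enzyme, at 31.4 RPKM in Vehicle cells, and the lowest was Mars2, the methionine enzyme, with 2.75, 2.84 and 2.48 RPKM with Vehicle and 2.48, 2.32 and 1.90 RPKM with OMP. Of the 50-base stretches of Lars2 transcripts, 0.196% also occur in transcripts of other genes. That comparison covers only exact matches to annotated transcripts, not inexact copies or sequence without annotation. The source of the high Lars2 level was not tested. The summed level of the 16 mitochondrial genes was 393 ± 15.3 RPKM with Vehicle and 390.3 ± 17.7 RPKM with OMP (SD, n = 3), and the group ranges overlapped. Without Lars2 these sums were 181 ± 0.852 and 188 ± 4.54 RPKM. The 20 cytosolic genes summed to 2461 ± 23.3 RPKM with Vehicle and 2486 ± 34.1 RPKM with OMP. Their share of the RPKM summed over all genes was 0.574 ± 0.00566% with Vehicle and 0.547 ± 0.00945% with OMP. Every OMP library had a lower share than every Vehicle library.

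**Figure D1:**
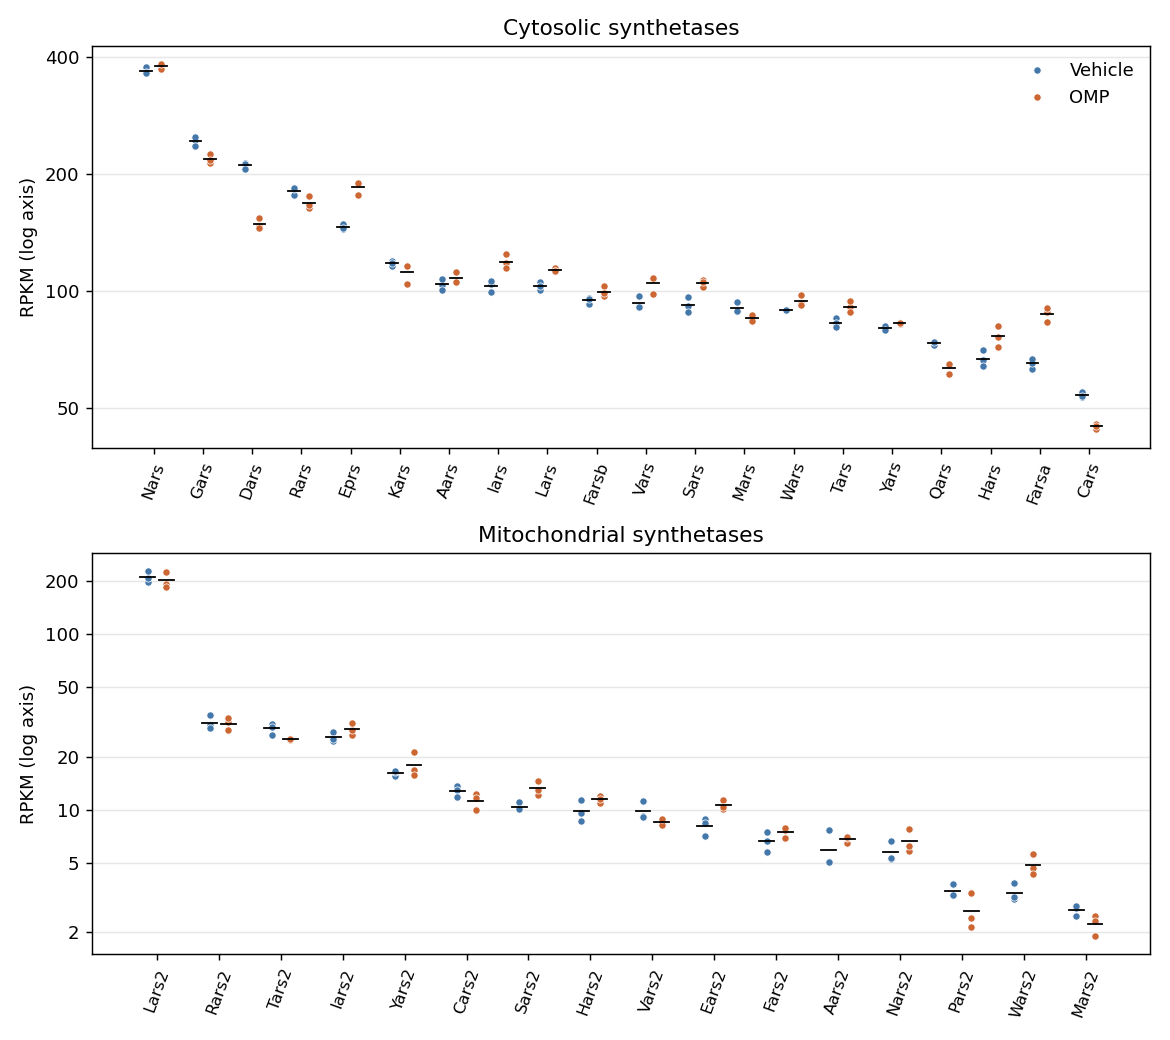
RPKM (log axis) of each cytosolic (top) and mitochondrial (bottom) synthetase gene, ordered by the Vehicle mean; points are the 3 Vehicle (blue) and 3 OMP (orange) libraries, black bars the group means. Nars leads the cytosolic genes at 369 RPKM, and Lars2 at 212 RPKM lies far above the other mitochondrial genes, whose next mean is 31.4 RPKM.

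With OMP, synthetase mRNAs moved in both directions and by small amounts. By limma on log2(RPKM + 0.5) with Benjamini-Hochberg adjustment, 16 of 36 genes (44.4%) were called at an adjusted p under 0.05, against 43.0% of the 11020 genes tested. Of the synthetases 11 (30.6%) were called higher and 5 (13.9%) lower, where 15.4% of all tested genes were higher and 27.5% lower. The share called was thus near the background, while higher calls outnumbered lower ones among synthetases and not among all genes. That contrast was not tested as a set, and it depended on the scaling. With TPM rescaling lower calls outnumbered higher ones in both. With median-of-ratios scaling or without the GC and length trend higher calls outnumbered lower ones in both. In each of these 13 cytosolic genes were higher and 3 lower, and 5 mitochondrial genes higher and 0 lower. With quantile normalization the contrast held: 8 cytosolic genes were higher and 5 lower, and 5 mitochondrial genes higher and 0 lower. Beside the quantile counts stand 20.4% higher and 21.1% lower over all genes, and with median-of-ratios scaling 21.5% and 20.3%. The median absolute log2 fold change was 0.21 for the called synthetases and 0.43 for all called genes. On this scale, which understates changes of low genes, none of the 36 changed by more than 1.5-fold. By more than 1.3-fold, 3 did (Dars, Farsa and Wars2).

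Among the 20 cytosolic genes 8 were called higher and 4 lower, and among the 16 mitochondrial genes 3 were higher and 1 lower. The median log2 fold change was 0.06 over the cytosolic and 0.14 over the mitochondrial genes, against -0.09 over all genes tested. Without OMP 3 or Vehicle 3, 5 cytosolic genes were called higher, and without OMP 2, Vehicle 1 or Vehicle 3, 1 mitochondrial gene was. Without Vehicle 1 that gene was Aars2, not called in the full fit, and Ears2, Sars2 and Wars2 lost their calls. The log2 fold changes ran from -0.50 to 0.42 over the cytosolic and from -0.34 to 0.46 over the mitochondrial genes. The share called, 60.0% against 25.0%, goes with a difference in precision: the median SE of a log2 fold change was 0.04 for cytosolic and 0.10 for mitochondrial genes, and its part in the counts was not tested. The cytosolic genes had 430 to 4069 reads per library and the mitochondrial ones other than Lars2 had 23 to 634. The 2 groups did not overlap, meaning that every OMP library lay above or below every Vehicle library, for 11 higher and 6 lower cytosolic genes and for 3 higher and 2 lower mitochondrial genes, against 19.9% and 34.6% of all genes (54.5% in either direction).

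**Figure D2:**
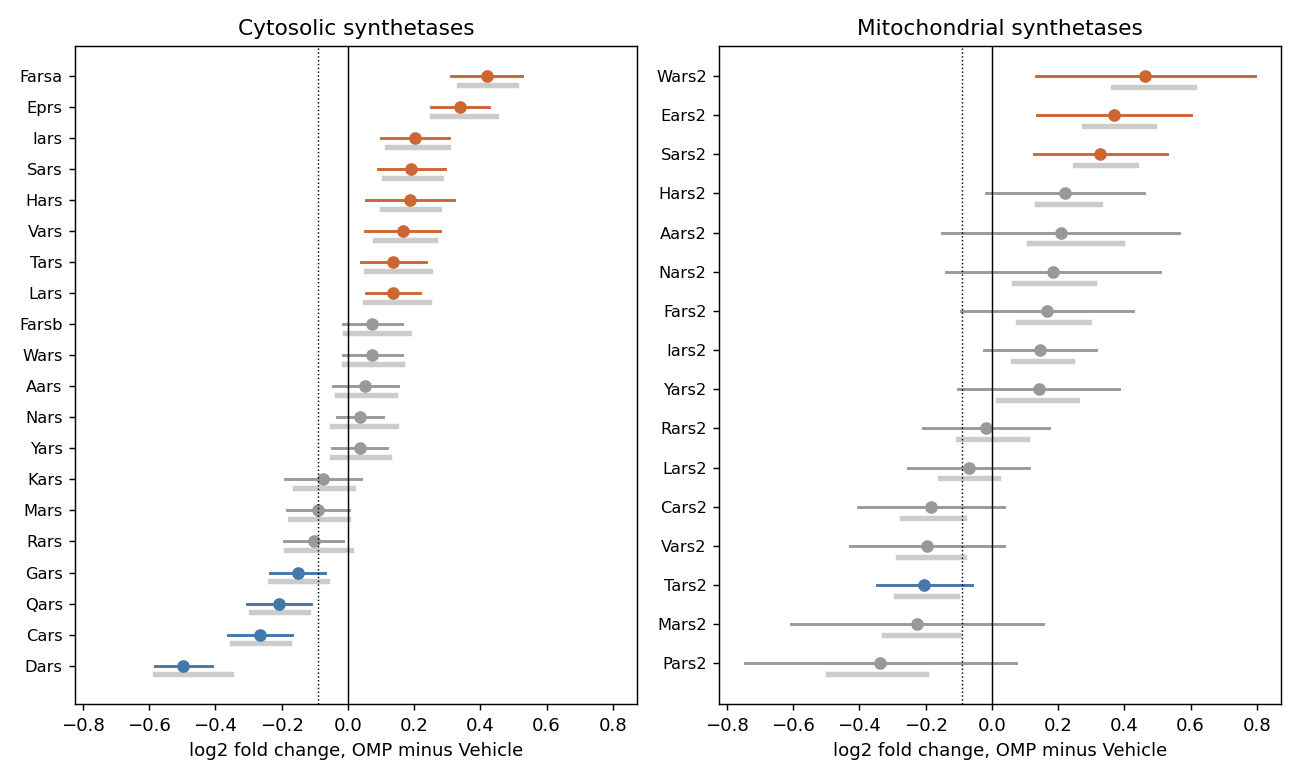
Log2 fold change, OMP minus Vehicle, of each synthetase gene with its 95% confidence interval from limma, cytosolic genes on the left and mitochondrial genes on the right; orange points are called higher and blue points lower at an adjusted p under 0.05, and grey points are not called. The dotted line is the median of all genes (-0.09), and the light bar under each point spans the fold changes over all alternative analyses. The cytosolic changes run from -0.50 (Dars) to 0.42 (Farsa), and the intervals of the mitochondrial genes are wider.

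Farsa, the catalytic subunit of the cytosolic phenylalanine enzyme, had the largest rise among the cytosolic genes. It is annotated at chr8:84856989-84869257 (GRCm38). It gave 63.0, 65.5 and 67.0 RPKM in the Vehicle libraries and 83.2, 88.5 and 90.2 RPKM in the OMP libraries, and the groups did not overlap. The mean went from 65.2 ± 2.04 to 87.3 ± 3.66 RPKM (SD, n = 3), 1.34-fold higher, with a log2 fold change of 0.42 ± 0.05 (SE) and an adjusted p of 0.000221 by limma. Its partner Farsb, which encodes the other subunit of the same heterotetramer, gave 92.8, 95.8 and 95.2 RPKM with Vehicle and 103, 97.1 and 99.0 RPKM with OMP. Farsb did not pass the test, with a log2 fold change of 0.07 ± 0.04 and an adjusted p of 0.159. The exons of Farsb share 9.47% of their bases with Sgpp2 on the opposite strand. The log2 ratio of Farsa to Farsb was -0.53 ± 0.03 with Vehicle and -0.19 ± 0.10 with OMP (SD, n = 3), without overlap. The ratio, chosen after its values were seen, differed by 0.34 with an exact two-sided permutation p of 0.1, the smallest that 3 against 3 libraries allow. Groups of this size without overlap always give that p, so it adds nothing to the lack of overlap.

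Eprs, the fused glutamate and proline enzyme at chr1:185363044-185428360, was higher in all 3 OMP libraries than in any Vehicle library. It gave 144, 149 and 145 RPKM in the Vehicle libraries and 188, 177 and 189 RPKM in the OMP libraries. The change was 1.26-fold, 0.34 ± 0.04 (SE) on the log2 scale, with an adjusted p of 0.000244. Further rises were smaller. Iars, the isoleucine enzyme, gave 99.6, 104 and 106 RPKM with Vehicle and 118, 115 and 124 RPKM with OMP, 1.15-fold higher with an adjusted p of 0.00696. Sars, the serine enzyme, gave 91.3, 96.3 and 88.2 RPKM with Vehicle and 102, 107 and 105 RPKM with OMP, 1.14-fold higher with an adjusted p of 0.00853. For both genes the lowest OMP library was above the highest Vehicle library. Of the 50-base stretches of Iars transcripts, 7.15% also occur in the gene model Gm4849, so part of its reads could have been assigned either way.

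Lars, Hars, Vars and Tars, for leucine, histidine, valine and threonine, completed the cytosolic rises at 1.10-fold, 1.14-fold, 1.12-fold and 1.10-fold. Lars went from 103 ± 2.32 to 113 ± 1.19 RPKM, with an adjusted p of 0.0162, and its call was lost without Vehicle 1. Hars gave 66.4, 70.5 and 64.2 RPKM with Vehicle and 71.7, 81.3 and 76.3 RPKM with OMP, without overlap, and had an adjusted p of 0.0297. The exons of Hars share 7.97% of their bases with Hars2 on the opposite strand, and without a stated strand setting those reads cannot be told apart. Vars gave 97.1, 91.5 and 91.1 RPKM with Vehicle and 98.3, 107 and 108 RPKM with OMP, where the lowest OMP library was only just above the highest Vehicle library, with an adjusted p of 0.0273. Tars had an adjusted p of 0.0318. The calls of Hars, Vars and Tars were lost in several of the fits that leave out 1 library, with adjusted p-values up to 0.0931, 0.0850 and 0.0996.

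Dars, the aspartate enzyme of the multisynthetase complex at chr1:128363707-128417368, had the largest fall of the cytosolic genes. It gave 213, 213 and 206 RPKM in the Vehicle libraries and 147, 155 and 145 RPKM in the OMP libraries. Every OMP library was far below every Vehicle library. The mean went from 210.4 ± 4.05 to 149 ± 4.97 RPKM (SD, n = 3), 1.41-fold lower, with a log2 fold change of -0.50 ± 0.04 (SE) and an adjusted p of 2.87e-05 by limma. Cars at chr7:143557230-143600090, which charges cysteine tRNA, gave 53.4, 55.1 and 53.6 RPKM with Vehicle and 44.0, 45.6 and 44.9 RPKM with OMP. It was 1.20-fold lower, with a log2 fold change of -0.27 ± 0.04 and an adjusted p of 0.00136.

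Qars and Gars were the other cytosolic genes called lower. Qars, the glutamine enzyme at chr9:108507706-108515941, gave 73.5, 72.7 and 74.1 RPKM with Vehicle and 61.0, 64.7 and 64.9 RPKM with OMP and was 1.16-fold lower with an adjusted p of 0.00452. Gars, the glycine enzyme of cytosol and mitochondria at chr6:55038007-55079500, gave 244, 248 and 236 RPKM with Vehicle and 214, 225 and 217 RPKM with OMP and was 1.11-fold lower with an adjusted p of 0.0101. In both genes the groups did not overlap. Dars, Cars, Qars, Farsa and Eprs were the 5 synthetases whose call held in each of the 17 alternative analyses.

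The remaining 8 cytosolic genes did not pass the test. Nars, at the highest level, had a log2 fold change of 0.04 ± 0.03 (SE, adjusted p 0.359). Wars, the tryptophan enzyme, gave 89.6, 89.5 and 89.6 RPKM with Vehicle and 92.9, 92.3 and 97.7 RPKM with OMP, without overlap, and had a log2 fold change of 0.07 ± 0.04 (adjusted p 0.161). The values for Aars (alanine) and Yars (tyrosine) were 0.05 and 0.04, and those for Kars (lysine), Mars (methionine) and Rars (arginine) were -0.08, -0.09 and -0.10, with adjusted p-values from 0.0599 to 0.454. Aars shares 14.3% of its annotated exon bases with Exosc6 on the same strand.

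The 8 genes for enzymes of the multisynthetase complex held calls in both directions. Eprs, Iars and Lars were called higher, Dars and Qars lower, and Kars, Mars and Rars were not called, with a median log2 fold change of -0.08. Beside this and the following small groups stand the shares over all genes, 43.0% called, 15.4% higher and 27.5% lower. Their summed level was 1026 ± 11.8 RPKM with Vehicle and 995 ± 12.5 RPKM with OMP. Of the 12 cytosolic genes outside the complex, 5 were called higher (Farsa, Sars, Hars, Vars and Tars) and 2 lower (Cars and Gars), with a median of 0.07. Both catalytic classes held calls in both directions: 3 of 9 class I genes were higher and 2 lower, and 4 of 10 class II genes were higher and 2 lower. Eprs, which holds both classes, was left out of both counts. Of the 5 genes with TGATGNAA in the printed promoters, Iars and Tars were called higher, Gars lower, and Aars and Yars neither, with a median of 0.05. Of the 8 cytosolic genes with a matched promoter without it, 3 were higher and 2 lower, with a median of -0.001.

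In the mitochondrial group Wars2, the tryptophan enzyme at chr3:99141068-99239186, had the largest rise. It gave 3.09, 3.82 and 3.20 RPKM in the Vehicle libraries and 4.67, 4.28 and 5.61 RPKM in the OMP libraries. The groups did not overlap, and the mean went from 3.37 ± 0.394 to 4.85 ± 0.683 RPKM (SD, n = 3). On the fitted scale, which understates changes of low genes, Wars2 was 1.38-fold higher, with an adjusted p of 0.0311 by limma. These values rest on 51 to 92 reads per library, and without any 1 of 4 libraries (OMP 1, OMP 3, Vehicle 1 or Vehicle 3) the adjusted p rose to between 0.0592 and 0.106. Ears2, the glutamate enzyme, which in mitochondria also charges the glutamine tRNA with glutamate, gave 7.06, 8.84 and 8.40 RPKM with Vehicle and 10.1, 11.3 and 10.4 RPKM with OMP. It was 1.29-fold higher with an adjusted p of 0.0187, and without OMP 2 or Vehicle 1 that p was 0.0595 or 0.0545. Sars2, the serine enzyme, gave 10.2, 11.0 and 10.1 RPKM with Vehicle and 12.1, 14.6 and 13.0 RPKM with OMP, 1.25-fold higher with an adjusted p of 0.0168, and narrowly missed the threshold without OMP 2, Vehicle 1 or Vehicle 3, at 0.0503 to 0.0529.

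Tars2, the mitochondrial threonine enzyme, was the 1 mitochondrial gene called lower. It gave 30.7, 29.8 and 26.8 RPKM in the Vehicle libraries and 24.9, 25.2 and 25.2 RPKM in the OMP libraries. The change was 1.15-fold, with a log2 fold change of -0.20 ± 0.06 (SE) and an adjusted p of 0.029, and the call was lost without OMP 1, 2 or 3 or Vehicle 1 or 2, with adjusted p-values of 0.0595 to 0.0985. Pars2, the proline enzyme, had the lowest fitted value of the mitochondrial genes, -0.34 ± 0.18, and did not pass the test (adjusted p 0.161). Its libraries gave 3.25, 3.77 and 3.25 RPKM with Vehicle and 2.16, 2.40 and 3.35 RPKM with OMP from 23 to 47 reads each, and OMP 3 lay among the Vehicle libraries.

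The other 11 mitochondrial genes did not pass the test. Their log2 fold changes ran from -0.23 for Mars2 to 0.22 for Hars2, the histidine enzyme. Values above 0 were found for Aars2 (0.21), Nars2 (0.18), Fars2 (0.17), Iars2 (0.14) and Yars2 (0.14). Vars2, Cars2, Lars2 and Rars2 had values of -0.20, -0.18, -0.07 and -0.02. The adjusted p-values of these genes ran from 0.121 to 0.886. For Lars2, the log2 fold change of -0.07 ± 0.08 (SE) had an adjusted p of 0.511. Iars2 shares 24.2% of its exon bases with Rab3gap2 and 2010103J01Rik on the opposite strand, and Fars2 shares 10.7% with Lyrm4 and Nrn1.

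Setting the cytosolic gene beside its mitochondrial counterpart gave 17 pairs, with Eprs and Fars2 entering 2 each. In Vehicle cells the cytosolic level was higher in 16 pairs, with a ratio of RPKM of 0.487 for Lars to Lars2, a median of 9.47 and a highest value of 64.3 for Nars to Nars2. The fitted change had the same sign in both compartments in 13 of the 17 pairs. With TPM rescaling Aars, Nars, Wars, Yars and Farsb turned negative while their mitochondrial counterparts stayed positive, so this count depended on the scaling. Both members were called in the same direction for glutamate (Eprs and Ears2) and for serine (Sars and Sars2). For threonine, Tars was called higher and Tars2 lower. The log2 change of the cytosolic gene was above that of its counterpart in 7 pairs and below it in 10.

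The log2 ratio of the pair had no overlap between Vehicle and OMP libraries in 5 pairs, and these differences were not tested. They were Eprs to Pars2, with fitted changes 0.68 apart, Wars to Wars2 (-0.39), Vars to Vars2 (0.36), Tars to Tars2 (0.34) and Sars to Sars2 (-0.14). Taken singly, 54.5% of all genes tested had no overlap, and a like share over ratios of other genes was not computed. The log2 ratio of Eprs to Pars2 was 5.27, 5.13 and 5.28 with Vehicle and 6.15, 5.93 and 5.62 with OMP. That of Wars to Wars2 was 4.65, 4.38 and 4.60 with Vehicle and 4.17, 4.28 and 4.01 with OMP. The proline ratio was higher and the tryptophan ratio lower in every OMP library. The smallest differences were those of Eprs and Ears2 (-0.03), Hars and Hars2 (-0.03) and Iars and Iars2 (0.06).

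**Figure D3:**
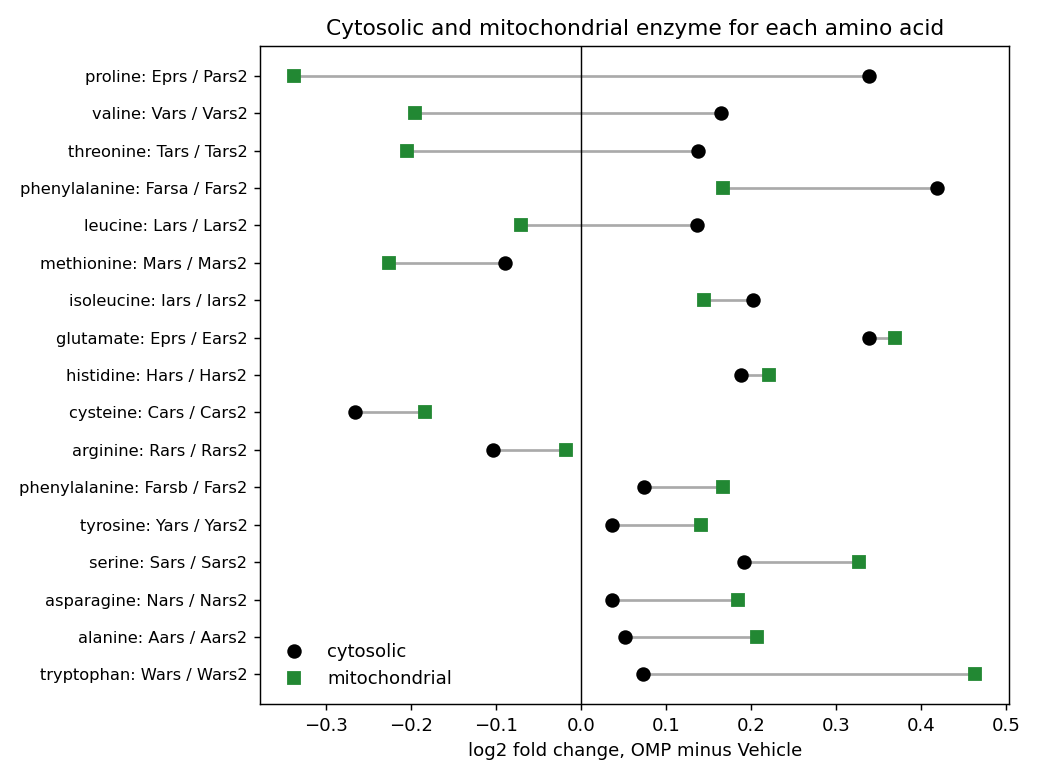
Log2 fold change, OMP minus Vehicle, of the cytosolic (black circles) and mitochondrial (green squares) gene for each amino acid, joined by a grey line and ordered by the difference, with 17 pairs. Proline (Eprs and Pars2) lies at the top with 0.68 between the genes and tryptophan at the bottom with -0.39.

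The direction of small changes depended on how libraries were scaled, so the position relative to all genes is given as well. The cytosolic median lay 0.15 above the all-gene median on the log2 scale in the deposited RPKM, with TPM rescaling, with median-of-ratios scaling (0.16) and with the trend of GC content and length removed, and 0.08 above it with quantile normalization. The mitochondrial median lay 0.23 to 0.24 above it in each. The cytosolic median itself was -0.02 with TPM rescaling, and 0.06 to 0.15 in the others. With TPM rescaling 2 cytosolic genes were called higher and 7 lower, beside 11.0% and 36.1% of all genes. With median-of-ratios scaling 13 were higher and 3 lower, beside 21.5% and 20.3% of all genes. With quantile normalization 8 were higher and 5 lower, beside 20.4% and 21.1%, and without the GC and length trend 13 were higher and 3 lower, beside 22.7% and 19.9%. The calls of Iars, Sars, Hars, Vars, Tars and Lars were lost with TPM rescaling, and with median-of-ratios scaling Gars lost its call and Aars, Nars, Wars, Yars and Farsb were called higher. The mitochondrial counts were 2 higher and 2 lower with the first and 5 higher and 0 lower with the second.

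Among 15 genes for synthetase accessory proteins and special charging routes, 14 were tested, with 3 called higher, 3 lower and a median log2 fold change of -0.03. Beside this stand 15.4% higher and 27.5% lower over all genes tested. Aimp2, a scaffold of the multisynthetase complex, changed more than any synthetase. It gave 14.7, 13.4 and 15.1 RPKM in the Vehicle libraries and 28.7, 28.7 and 29.9 RPKM in the OMP libraries, 1.99-fold higher with a log2 fold change of 0.99 ± 0.06 (SE) and an adjusted p of 1.23e-05. Eef1e1, a smaller scaffold subunit, went from 39.0 ± 1.78 to 47.0 ± 1.29 RPKM, with an adjusted p of 0.00358. The third scaffold, Aimp1, went from 80.5 ± 6.50 to 80.0 ± 5.81 RPKM and was not called (adjusted p 0.938). The mRNAs of the scaffold proteins and of the enzymes they hold thus took different values, from -0.50 for Dars to 0.99 for Aimp2 on the log2 scale.

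Mitochondria make glutaminyl-tRNA by converting the glutamate that Ears2 has loaded, with an amidotransferase of the subunits Gatb, Gatc and Qrsl1. Gatc was called lower, from 17.5 ± 0.626 to 11.9 ± 2.10 RPKM, 1.47-fold with an adjusted p of 0.00525. Gatb and Qrsl1 were not called, with log2 fold changes of -0.07 and 0.26 (adjusted p 0.682 and 0.0646). Selenocysteine is made on its tRNA from serine loaded by Sars. Pstk, the kinase of that route, was called higher by 0.72 on the log2 scale (adjusted p 0.0148). Sepsecs, the enzyme after it, which needs the active form of vitamin B6, went from 8.63 ± 0.504 to 7.87 ± 0.822 RPKM and was not called (adjusted p 0.334). The genes Prorsd1 and Dtd1, related to the editing of mischarged tRNAs, were called lower by -0.36 and -0.28 on the log2 scale (adjusted p 0.0163 and 0.0394). Mtfmt of the same list was not called, with a log2 fold change of 0.06 (adjusted p 0.618).

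The tRNA modification genes held more higher than lower calls. Of 28 tested of 30 listed, 8 were higher and 3 lower, with a median of 0.16, beside 15.4% and 27.5% of all genes. Nsun2, a tRNA cytosine methyltransferase, went from 94.1 ± 2.56 to 125 ± 3.12 RPKM, 1.33-fold higher with an adjusted p of 0.000104. Dus2, which makes dihydrouridine, and Elp3, the catalytic subunit of Elongator, were higher by 0.71 and 0.33 on the log2 scale (adjusted p 0.000779 and 0.00376). With median-of-ratios scaling 14 genes of this list were called higher, beside 21.5% of all genes. The tRNA maturation list had 2 higher and 5 lower of 20 tested, with a median of -0.08. Its smallest adjusted p was that of Ssb, the La protein that binds new RNA polymerase III transcripts, which went from 126 ± 4.03 to 151 ± 0.157 RPKM (adjusted p 0.000755). Rpp38, a subunit of the nuclease that trims the 5′ end of tRNAs, was higher by 0.87 and Elac1, a tRNA 3′ nuclease, lower by -0.56 on the log2 scale (adjusted p 0.00624 and 0.0104). Without Vehicle 1 or Vehicle 2, 3 genes of the maturation list were called lower. With TPM rescaling 10 were, beside 36.1% of all genes in that scaling. With median-of-ratios scaling, quantile normalization or the GC and length trend taken out, the maturation list had 5 higher and 2 lower genes. In those fits 20.4% to 22.7% of all genes were higher and 19.9% to 21.1% lower.

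RNA polymerase III, which transcribes tRNA genes, had 4 higher and 8 lower genes of 20 tested, with a median of -0.13, beside 15.4% higher and 27.5% lower over all genes. The lower calls numbered 4 with median-of-ratios scaling or without the GC and length trend, and 3 with quantile normalization. In the same order, 20.3%, 19.9% and 21.1% of all genes were lower in those fits. Without Vehicle 2 the lower calls numbered 3 and without Vehicle 3 they numbered 5. Maf1, the repressor of this polymerase, went from 45.1 ± 5.04 to 25.4 ± 2.47 RPKM, 1.76-fold lower with an adjusted p of 0.000261. Of the polymerase subunits, Polr3d was higher by 0.59 and Polr3c lower by -0.49 on the log2 scale (adjusted p 0.000158 and 0.000743). The amino acid response list had 5 higher and 9 lower of 19 tested, beside the same shares over all genes, with a median of -0.08, and 3 were higher without OMP 2, Vehicle 1 or Vehicle 3. Its central factor Atf4 went from 517 ± 17.5 to 529 ± 12.9 RPKM, with an adjusted p of 0.483. Asns, the asparagine synthetase known as an Atf4 target, was 1.34-fold lower, from 268 ± 13.0 to 199.7 ± 7.31 RPKM (adjusted p 0.000181), and Ddit3 was 1.82-fold lower (adjusted p 9.62e-06). Atf5 was higher, from 58.8 ± 2.92 to 101 ± 6.92 RPKM (adjusted p 3.31e-05), and Cebpg was lower by -0.82 on the log2 scale (adjusted p 2.81e-05). The direction within this list thus differed from gene to gene. Among the synthetases with the element in their promoter, only Gars had a negative change in the main fit. With median-of-ratios scaling or without the GC and length trend, Gars lost its call and Aars and Yars were called higher. With TPM rescaling, Iars and Tars lost their calls, and Aars (-0.032) and Yars (-0.048) turned negative.

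**Figure D4:**
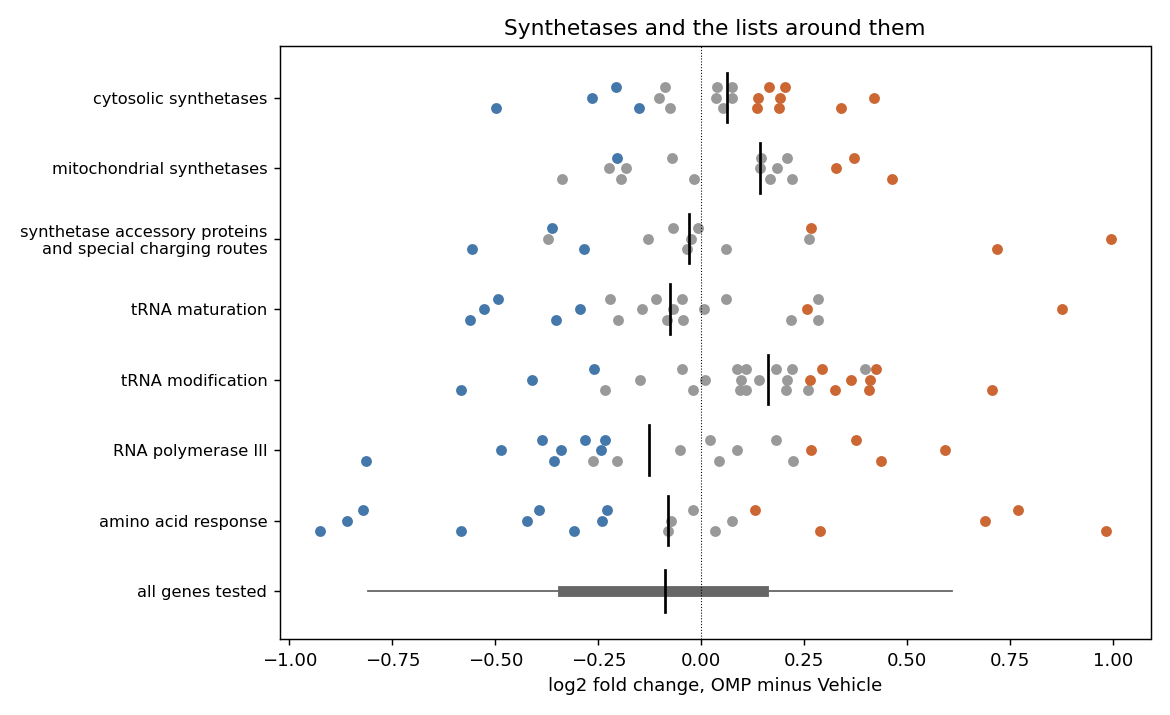
Log2 fold change, OMP minus Vehicle, of every tested gene in the synthetase groups and in 5 related gene lists, with black bars for the medians and orange and blue points for genes called higher and lower by limma. The bottom row gives the median, quartiles (thick) and the span from percentile 5 to 95 (thin) of all genes tested. The medians run from -0.13 (RNA polymerase III) to 0.16 (tRNA modification), and Aimp2 at 0.99 is the highest of the accessory genes.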

How the data were processed

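Poly(A) RNA of 6 libraries, 3 with PBS and 3 with OMP, was sequenced after TruSeq preparation, per the labels' protocols. The authors deposited RPKM values for 53465 genes, made with STAR 2.5.3a on mm10 (GRCm38) and counted by featureCounts 1.6.3, after Trimmomatic 0.36 and FastQC 0.11.5, according to the submitters' processing notes. No source used here gives the annotation release or strand setting. Groups came from the labels, and columns were matched by sample title.

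Whole reads could be recovered from the deposited RPKM values (100% of 19970 genes, relative tolerance 1e-06), which gave the library totals and reads per gene. For a gene of 1 kb, 3 reads stand for 0.706 to 0.858 RPKM, and read numbers cover counting error only. Genes with at least 1 RPKM in at least 3 of 6 libraries were kept. Values were fitted as log2(RPKM + 0.5) with limma 3.58.1 in R 4.3.3, two-sided, with a variance trend on mean expression and Benjamini-Hochberg adjustment over all 11020 genes (threshold 0.05). A log2 fold change is OMP minus Vehicle on this scale and understates changes of low genes, and so do the folds made from it. The script was tested on simulated data. Positions, exon overlaps and shared 50-base stretches came from GENCODE M21 (GRCm38), which may not be the release used for counting, and promoters from RefSeq (GRCm38.p6).

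The members and gene lists were chosen with earlier results of these data known. All synthetases are reported, and of each related list the 3 genes with the smallest p-value and genes fixed by name, among them Atf4, Asns, Aimp1 and Sepsecs. Outside this rule, the other called genes of the accessory list (Pstk, Prorsd1 and Dtd1) are described as well. A search for genes with a like pattern was not reported, because the 6 libraries fall into 2 groups. Same-numbered replicates did not deviate together. Libraries of 1 group differed by more than counting noise (chi-square over degrees of freedom, 1.19 to 1.61). Alternatives covered pseudocounts, filters, scalings, voom, a robust prior, the replicate number and leaving out each library, and 2 were added after seeing the data: a fit without the GC and length trend, and the mitochondrial median without Lars2. Figures were drawn with matplotlib 3.10.9.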

Additional observations from a re-analysis of the deposited data

How the results depend on the processing

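Across 17 alternatives to the limma fit, 5 synthetases kept their call in each (Dars, Cars and Qars lower, Farsa and Eprs higher), 11 lost it in at least 1, and 12 uncalled genes were called in at least 1. With TPM rescaling, 2 cytosolic genes were called higher and 7 lower and 2 mitochondrial genes lower, with medians of -0.021 and 0.061, 10 tRNA maturation genes were lower and 3 amino acid response genes higher. With median-of-ratios scaling, 13 cytosolic genes were higher, 5 mitochondrial genes higher and 0 lower, with medians of 0.15 and 0.23. In that scaling, 1 accessory gene was lower, tRNA maturation had 5 higher and 2 lower, tRNA modification 14 higher and RNA polymerase III 4 lower. With quantile normalization, 5 mitochondrial genes were higher and 0 lower, their median was 0.23 and the cytosolic minus mitochondrial median -0.16 (main value -0.08). There, 1 accessory gene was lower, tRNA maturation had 5 higher and 2 lower, tRNA modification 14 higher and RNA polymerase III 3 lower. Taking out the GC and length trend, added after seeing the data, gave 13 cytosolic genes higher and 5 mitochondrial genes higher and 0 lower, with medians of 0.15 and 0.25. It gave 1 accessory gene lower, 5 maturation genes higher and 2 lower, 15 modification genes higher and 4 RNA polymerase III genes lower. Without a filter 3 amino acid response genes were higher, and with voom 4 maturation genes were higher. Among single synthetases, signs turned only in uncalled ones: with TPM for Aars (-0.032), Nars (-0.048), Wars (-0.011), Yars (-0.048) and Farsb (-0.010), with median-of-ratios for Kars (0.014), Lars2 (0.019) and Rars2 (0.071), with quantile normalization for Nars (-0.010) and Rars2 (0.045), with GC content and length for Kars (0.0054), Rars (0.0084), Lars2 (0.013) and Rars2 (0.11), and for Rars2 without OMP 2 or Vehicle 3 (from -0.069 to 0.059 over the 6 libraries left out). Over all genes, 11.0% were called higher and 36.1% lower with TPM rescaling. In the other scalings 20.4% to 22.7% were higher and 19.9% to 21.1% lower. The scalings differ in the all-gene median they set (-0.17 to 0.005), and the cause of the other moves was not tested.

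Leaving out 1 library gave 3952 to 4207 called genes (4735 with all), with fewer samples in each fit. Cytosolic calls ran from 5 to 7 higher and 4 to 5 lower, mitochondrial calls from 1 to 4 higher and 0 to 1 lower, the cytosolic median from 0.04 to 0.08, the mitochondrial median from 0.10 to 0.12 and their difference from -0.067 to -0.021. Accessory genes ran from 2 to 4 higher and 2 to 2 lower, tRNA maturation from 2 to 3 higher and 3 to 7 lower, tRNA modification from 8 to 10 higher and 3 to 4 lower, RNA polymerase III from 3 to 5 higher and 3 to 8 lower, and the amino acid response from 3 to 4 higher and 9 to 9 lower. Replicate numbers are shared between groups, but deviations of same-numbered libraries correlated at only -0.002, 0.02 and 0.007, so they share only a number. With the replicate number as a block, 4445 genes were called, 1598 higher and 2847 lower, and 6 cytosolic genes higher and 4 lower, 2 mitochondrial genes higher and 1 lower. Without Lars2 the mitochondrial median was 0.14 and the difference -0.08. A planned edgeR fit was not run, because the deposited values are RPKM. Read numbers of mitochondrial genes went down to 23 per library, and what this did to their calls was not tested.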

Other observations

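The Lars2 libraries differed more within a group than those of most genes with like read numbers. Its coefficient of variation was 7.44% among the Vehicle libraries and 10.9% among the OMP libraries. Over the 198 genes whose mean read number was within 1.5-fold of that of Lars2, Lars2 included, the median was 2.56% with Vehicle and 2.83% with OMP. Of the others, 5 reached the Lars2 value with Vehicle and 0 with OMP. Lars2 was singled out after its values were seen, and no test was made. Vehicle 3 and OMP 1 gave the highest Lars2 values of their groups, 229 and 227 RPKM, and nearly coincided across the treatments. With Vehicle its mean of 212 RPKM stood beside 181 RPKM for the other 15 mitochondrial genes summed, and the SD of the sum over all 16 was 15.3 RPKM, against 0.852 RPKM without Lars2.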
